A study of Mus musculus with 12 samples.

Results

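The genes described here encode 4 cytochrome P450 enzymes that make or break down the active form of vitamin D: Cyp24a1, Cyp27b1, Cyp2r1 and Cyp27a1. They were taken as all non-control probes whose transcript accession maps to 1 of these symbols, which gave 5 probes and 4 genes of the 36728 genes and unnamed transcripts on the array. Cyp2r1 had 2 probes and the others 1 each. All 4 genes passed the detection filter and were among the 24245 genes tested.

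Vitamin D made in the skin or eaten is first hydroxylated at carbon 25, mainly in the liver by CYP2R1 and to a lesser degree by CYP27A1, a mitochondrial enzyme better known for oxidising the side chain of cholesterol. CYP27B1, mostly in the kidney and also in some epithelia and macrophages, then adds the hydroxyl group that gives calcitriol, the hormone that binds the vitamin D receptor. CYP24A1 hydroxylates the side chain of calcitriol and of its precursor and so starts their breakdown, and its gene is a classical target of the receptor, with binding elements in its promoter.

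RNA was measured on 12 Agilent arrays of organoids that had been established from colon crypts in Matrigel under conditions that favour stem cells. The groups, each of 3 mice on the C57BL/6 background, were wild-type organoids given calcitriol, wild-type organoids given ethanol vehicle, Vdr-knockout organoids given calcitriol and Vdr-knockout organoids given vehicle. Calcitriol was at 100 nM and was renewed every 48 h, for 72 h by the series' design text and 62 h by the sample descriptions. Each mouse gave 1 calcitriol array and 1 vehicle array. The main test compares group means without this pairing, and a fit with mouse as a block was also made. Mice 1, 2 and 3 of each genotype were 2, 3 and 2 months old by the labels. The labels name the allele only as a VDR knockout, with no word on the deleted exons or on the tissues that lack it.

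A level here is the log2 of the processed intensity minus the 75th percentile of the probes on that array, so levels of 1 gene can be compared between arrays but levels of different genes cannot. A gene was called where the adjusted p of limma, a linear model with moderated tests fitted to all genes, was below 0.05. Vdr, the targeted gene, lay at 0.14 ± 0.43 in knockout calcitriol, against 1.25 ± 0.18 in wild-type calcitriol, and at 0.24 ± 0.30 in knockout vehicle, against 1.83 ± 0.43 in wild-type vehicle (SD, n = 3 each), with no overlap between genotypes. The knockout arrays were lower by log2 differences of -1.10 in calcitriol (adjusted p = 0.253, and 0.00817 with the replicate number as a block) and -1.59 in vehicle (adjusted p = 0.324, and 0.0141 with the block, where 0.0165% of genes were called), and whether the probe lies in the deleted part is not known here. On the vehicle array of wild-type mouse 2, 72.8% of spots were well above background, and on the other 11 arrays 55.0% to 66.4%. The arrays lay on 3 slides: slide 1 held knockout vehicle 1 and 2, slide 2 held wild-type vehicle 1 and 2 and knockout calcitriol 3, and slide 3 held the other 7 arrays. Ddx3y, a Y-linked gene, lay between 0.82 and 0.99 on the 4 arrays of the mice numbered 2, although their label is female, while the remaining 8 arrays lay between -7.96 and -6.62, so sex labels are not used. All 12 epithelial markers examined, among them Epcam, Krt20 and Cdx2, passed the detection limit on every array. Of 9 fibroblast and muscle markers 3 to 6 passed it per array, with Vim on 12 arrays, Col1a2 and Pdgfrb on 11 each, and Pdgfra and Lum on none.

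Because the vitamin D receptor acts by binding pairs of 6-base half-sites, bases before the start site that RefSeq's table gives for each member are shown, with the half-sites and core promoter letters that a search found. The sequences are RefSeq's on GRCm38.p6, 3 of the 4 members had an entry, and Cyp24a1 had none. The whole searched window of Cyp27a1 lies inside its annotated gene, which starts further upstream, so only a short stretch of it is shown. The end of the Cyp2r1 window nearest to the start site also lies inside its gene, and the 174 bases before the gene are shown. Capitals mark, in Cyp27b1, a CCAAT box on the opposite strand and a TATATA, in Cyp2r1 a half-site (TGAACC, which is GGTTCA on the opposite strand) that shares 2 bases with a CCAAT box, and in Cyp27a1 the half-site AGTTCA in a 30-base stretch.
Cyp27b1, chr10:127047996-127048245, plus strand: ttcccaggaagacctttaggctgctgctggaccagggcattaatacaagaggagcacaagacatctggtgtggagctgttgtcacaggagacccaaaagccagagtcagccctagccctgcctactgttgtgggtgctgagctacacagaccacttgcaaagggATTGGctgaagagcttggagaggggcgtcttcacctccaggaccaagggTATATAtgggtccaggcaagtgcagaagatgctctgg
Cyp2r1, chr7:114563049-114563222, minus strand: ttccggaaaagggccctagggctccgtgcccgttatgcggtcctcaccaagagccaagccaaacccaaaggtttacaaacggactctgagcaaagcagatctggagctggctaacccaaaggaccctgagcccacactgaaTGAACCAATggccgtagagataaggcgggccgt
Cyp27a1, chr1:74713365-74713394, plus strand: agagagctccctAGTTCAtcttgtccacct

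The half-sites searched, on both strands of the 250 bases before each start, were those spelled AGGTCA, those that read AGTTCA instead, those with the letters GGGTCA, and finally the form written as GGTTCA. Cyp2r1 held 1 at positions -109 to -104 and Cyp27a1 held 1 at -158 to -153, and no such letters lay in the window of Cyp27b1. At least 1 half-site was found in 38.6% of 32851 promoters, so 2 of 3 members with one is a description only. None of the 3 windows held 2 half-sites in the same direction 3 bases apart, the spacing of the classical element, which 13 of the 32851 promoters did (0.0396%). The TATATA of Cyp27b1 lay at -37 to -32, and TATATA or TATAAA was found in 15.6% of promoters. A CCAAT box was found in all 3 windows, at -86 to -82 on the opposite strand in Cyp27b1, and in 33.8% of promoters.

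Cyp24a1, the gene of calcitriol breakdown, was bright in wild-type organoids given calcitriol and at or near background in the other 9 arrays. Its processed intensity was 38147, 41451 and 67868 in wild-type calcitriol cultures of mice 1, 2 and 3, against 3.24, 7.44 and 44.1 in their vehicle cultures. In knockout organoids it was 7.73, 2.62 and 2.97 with calcitriol, against 2.94, 3.03 and 2.95 with vehicle. The wild-type calcitriol arrays stood apart from all others without overlap, none of them was saturated, and 1 more array, wild-type vehicle of mouse 3, was well above background. All 6 knockout arrays were below that limit. The probe thus passed the filter only through the wild-type calcitriol group, the group where it is high and on which its calls rest.

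Within each wild-type mouse the level with calcitriol was higher than with vehicle by 13.05, 12.34 and 10.58 on the log2 scale. The smallest of these 3 came from mouse 3, whose vehicle array was the only vehicle array with a level above the detection limit, at -3.91, and whose 2 arrays lay on the same slide. The mean difference was 11.99 (SE 0.72, limma adjusted p = 1.75e-05). With the lowest level well above background in place of dimmer arrays, the rise was 1568-fold. Some probes not well above background can lie above that level, so this is no strict lower bound. Of the 4 genes, Cyp24a1 was the 1 called in wild type, where 0.153% of all genes tested were called. The call held with the mice as blocks (adjusted p = 9.31e-05), with slide as a block (difference 10.89, adjusted p = 0.00104) and within slide 3 (10.11, adjusted p = 0.032), where the vehicle array is that of mouse 3 alone and is assumed to vary like the other groups. Leaving out wild-type vehicle 2, the array with the most spots above background, gave 11.78 (adjusted p = 0.000302).

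In knockout organoids the level of Cyp24a1 with calcitriol minus that with vehicle was 1.40, -0.60 and 0.25 in the 3 mice, all between signals below the detection limit. The mean of 0.35 (SE 0.72, adjusted p = 1) therefore carries no fold change. None of the 4 genes was called there, as 0% of all genes tested were, with 1362 of 24245 at an unadjusted p below 0.05 in limma and 0 called with mouse as a block. Calcitriol and vehicle arrays of Cyp24a1 overlapped in knockout, as did those of the other 3 members, while 7.55% of all genes did not overlap there. The effect in wild type minus the effect in knockout was 11.64 (SE 1.01, adjusted p = 0.00116), and 0.0289% of genes were called in that test. That call ended with slide as a block (9.76, adjusted p = 0.215) and within slide 3 (9.37, adjusted p = 0.516), with the size still above 9 on the log2 scale. Its size rests on knockout values that are not well above background.

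Cyp24a1 was lower in knockout organoids given calcitriol than in wild-type organoids given calcitriol (measured log2 difference -13.35, SE 0.72, limma adjusted p = 5.16e-06). With the lowest level well above background in place of dimmer arrays, it was 3808-fold lower, again no strict bound. Cyp24a1 was the 1 member called, against 0.206% of all genes (1.00% with the replicate number as a block). The call also held within slide 3 (-13.19, adjusted p = 0.00136). In vehicle, the 3 knockout arrays lay at -7.73 to -7.34 and the 3 wild-type arrays at -7.24 to -3.91. Only wild-type mouse 3 was well above background, and the difference of -1.71 did not pass (adjusted p = 0.566, with 0.00412% of genes called). With fewer than all arrays measured, no fold is given. In these bulk cultures, more cells with the transcript and more transcript per cell cannot be told apart.

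**Figure D1:**
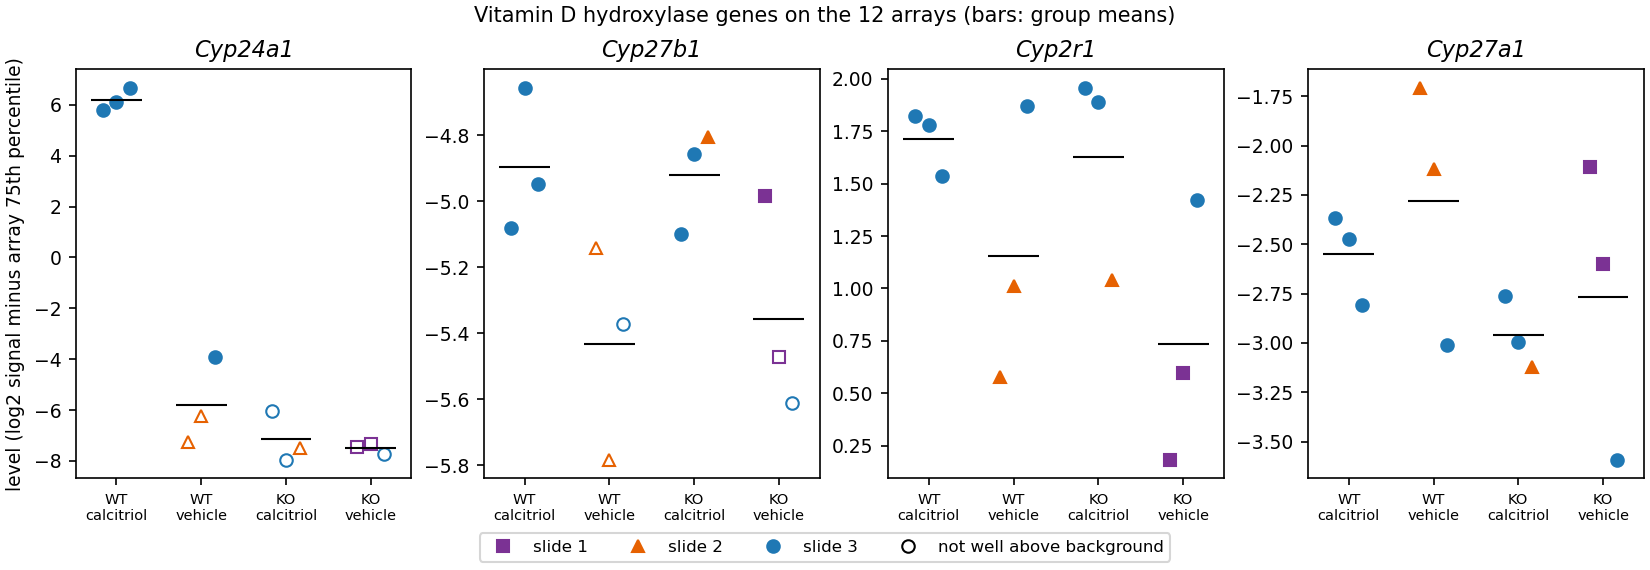
Level of each gene on each of the 12 arrays (y axis, log2 processed intensity minus the 75th percentile of the array, a scale of its own for each panel) in wild-type (WT) and Vdr-knockout (KO) organoids. Each point is 1 mouse in the order 1, 2, 3, the shape and colour give the slide, open symbols are not well above background, and bars are group means. Cyp24a1 separates the WT calcitriol arrays from the rest, Cyp27b1 lies at the detection limit, Cyp2r1 is higher on slide 3 than on the other slides, and Cyp27a1 is highest in mouse 1 and lowest in mouse 3 of every group.

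The 5 named genes whose levels ran most like Cyp24a1 over the 12 arrays were S100g, Gdpd5, C2cd4a, Atp2b1 and Tmem210, with Pearson r of 0.990, 0.980, 0.978, 0.973 and 0.972. S100g encodes a calcium-binding protein of absorptive cells, Atp2b1 a calcium pump of the plasma membrane and Gdpd5 a glycerophosphodiester phosphodiesterase. In each of the 5 genes the lowest wild-type calcitriol array was above the highest of the other 9. The genes were picked by their r with Cyp24a1 on these same arrays, so this separation is no independent result. For Gdpd5 the wild-type calcitriol arrays lay at 2.98 to 3.18 and the others at 0.33 to 0.94, and for Tmem210 at -1.33 to -1.22 and -2.75 to -2.16. The 12 arrays share mice and slides, so these coefficients are descriptions.

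Cyp27b1, the gene of the enzyme that makes calcitriol, was at the detection limit. Its level was -5.08, -4.66 and -4.95 in wild-type calcitriol arrays of mice 1, 2 and 3, against -5.14, -5.78 and -5.37 in wild-type vehicle arrays. In knockout organoids it was -5.10, -4.86 and -4.81 with calcitriol, against -4.98, -5.47 and -5.61 with vehicle. The probe was well above background on 3 of 3 wild-type calcitriol arrays and 0 of 3 wild-type vehicle arrays, and on 3 of 3 knockout calcitriol arrays and 1 of 3 knockout vehicle arrays. It passed the filter only through the calcitriol groups.

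The count of arrays with a measured Cyp27b1 signal was thus 6 of 6 with calcitriol and 1 of 6 with vehicle. The lowest level of any probe well above background also differed between arrays. It is no cutoff, as Cyp8b1 reached -4.12 and was well above background on no array. The lowest level well above background was -5.75 to -5.57 on the wild-type calcitriol arrays, against -5.03, -4.30 and -4.64 on the wild-type vehicle arrays. In knockout it was -5.91, -5.85 and -5.33 with calcitriol, against -6.12, -5.24 and -5.50 with vehicle. It was thus higher with vehicle in mouse 2 only. The wild-type vehicle levels of Cyp27b1 in mice 1 and 3, -5.14 and -5.37, lay above that lowest level on their calcitriol arrays, -5.75 and -5.57. That of mouse 2, -5.78, lay below the -5.72 of its calcitriol array. Whether these signals would have passed there was not tested. On the vehicle array of wild-type mouse 2, the raw median intensity of the spot was the highest of the 12, at 66.5, and the processed intensity the lowest, at 10.1, after the extraction software had subtracted its background estimate.

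The difference of Cyp27b1 between calcitriol and vehicle was 0.54 in wild type (SE 0.39, 95% interval -0.32 to 1.39, adjusted p = 0.993) and 0.43 in knockout (SE 0.39, interval -0.42 to 1.29, adjusted p = 1). The wild-type arrays did not overlap, as in 9.20% of all genes, and 3 of 3 wild-type mice and 2 of 3 knockout mice were higher with calcitriol. Another background correction (normexp), from raw intensities and followed by quantile normalization, put these differences at 0.19 and -0.005. Quantile normalization of the processed intensities put them at 1.25 and 0.11, and scaling to the median at 1.05 and 0.15, none of them called. The effect in wild type minus that in knockout was 0.10 (SE 0.55, interval -1.10 to 1.31), and 1.14 with quantile normalization (adjusted p = 1). Knockout against wild type differed by -0.03 in calcitriol and 0.08 in vehicle, each with an SE of 0.39, and the value in vehicle was 1.03 with quantile normalization (adjusted p = 0.845).

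Cyp27b1 is also a gene of activated macrophages, and markers of immune cells were followed beside it. All 13 were well above background on at least 1 array, and 10 to 12 of them per array in wild-type calcitriol, against 6 to 10 in wild-type vehicle, 7 to 9 in knockout calcitriol and 6 to 7 in knockout vehicle. Their summed level was 4.73 to 4.94 in wild-type calcitriol and 4.34 to 5.07 in wild-type vehicle, and 4.39 to 5.21 in knockout calcitriol and 4.39 to 5.04 in knockout vehicle. The macrophage marker Adgre1 was well above background on 5 of 12 arrays and the lysozyme gene Lyz2 on 3. Of 9 immune markers tested none was called in any of the 5 comparisons. With calcitriol 6 were above 0 in wild type, where 43.4% of all genes were, and 9 in knockout, where 55.2% were. The calcitriol arrays of mice 1 and 2, but not their vehicle arrays, lay on slide 3. The wild-type calcitriol arrays all lay on slide 3, and their lowest levels well above background were below those of the wild-type vehicle arrays. Csf1r lay at 0.89 to 1.43 on slide 3 and at 0.07 to 0.35 elsewhere. Itgam lay at 3.27 to 4.15 there and at 2.80 to 3.16 elsewhere. The other markers tested overlapped, and 5.54% of all genes were higher on slide 3 without overlap. The part of immune cells in the Cyp27b1 values, and of the slide in these counts, was not tested. The genes nearest to Cyp27b1 in pattern, led by 3930402G23Rik and the lysosomal gene Cln3, reached a Pearson r of only 0.79 and 0.76.

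Cyp2r1, the main 25-hydroxylase, was measured above background on every array with 1 of its 2 probes. Its level was 1.82, 1.78 and 1.53 in wild-type calcitriol arrays, against 0.58, 1.01 and 1.87 in wild-type vehicle arrays. In knockout organoids it was 1.96, 1.89 and 1.04 with calcitriol, against 0.18, 0.60 and 1.42 with vehicle. In both genotypes the calcitriol arrays of mice 1 and 2 were higher than their vehicle arrays, and the order was turned in mouse 3.

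The levels of Cyp2r1 did not overlap between slide 3 and the other slides. The 7 arrays of slide 3 lay between 1.42 and 1.96 (mean 1.75 ± 0.20, SD) and the 5 arrays of slides 1 and 2 between 0.18 and 1.04 (mean 0.68 ± 0.35). Of all genes tested, 5.54% were higher on slide 3 without overlap, and 6.46% did not overlap in either direction. Of the 4 members only Cyp2r1 was among them. Slide 3 held both calcitriol arrays and neither vehicle array of mice 1 and 2. It held both arrays of wild-type mouse 3, and of knockout mouse 3 only the vehicle array. The difference with calcitriol was 1.24 and 0.77 in wild-type mice 1 and 2 and 1.77 and 1.29 in knockout mice 1 and 2, against -0.34 in wild-type mouse 3 and -0.38 in knockout mouse 3.

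**Figure D2:**
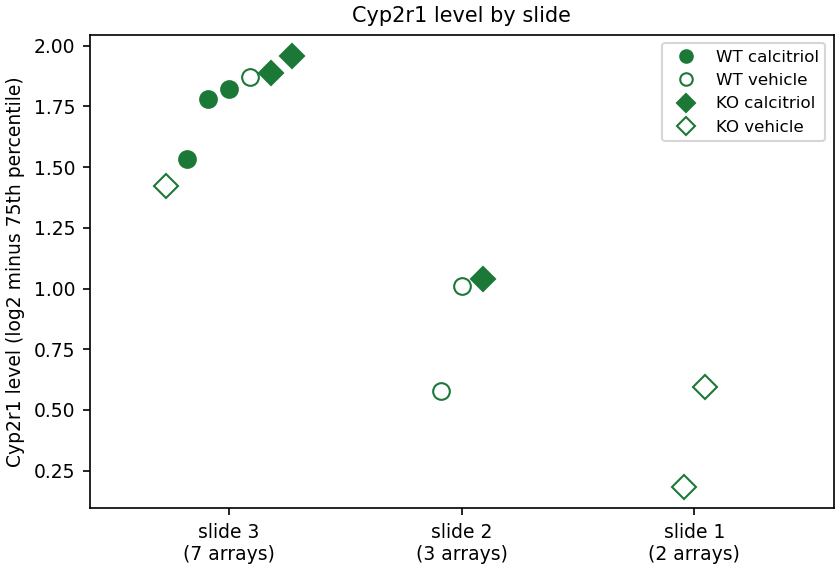
Level of Cyp2r1 on each array (y axis, log2 processed intensity minus the 75th percentile of the array), by the slide the array lay on, with 7, 3 and 2 arrays. Circles are WT and diamonds KO organoids, filled with calcitriol and open with vehicle. The 7 arrays of slide 3, from all 4 groups, lie at 1.42 to 1.96 and the other 5 at 0.18 to 1.04.

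The mean difference of Cyp2r1 with calcitriol was 0.56 in wild type (SE 0.37, adjusted p = 0.99) and 0.89 in knockout (SE 0.37, 95% interval 0.09 to 1.70, adjusted p = 0.862), and neither was called. In wild type the value turned to -0.09 (SE 0.21) with slide as a block and -0.16 (SE 0.19) within slide 3. In knockout it was 0.53 (SE 0.24, adjusted p = 0.849) with slide as a block and 0.50 within slide 3, not called in either. The knockout arrays of slide 3 are calcitriol of mice 1 and 2 and vehicle of mouse 3. Mouse and treatment therefore cannot be told apart in the value within slide 3. Knockout against wild type differed by -0.08 in calcitriol (SE 0.37) and -0.42 in vehicle (SE 0.37, adjusted p = 0.774), and in vehicle each of the 3 same-numbered pairs was lower in knockout, by 0.39 to 0.45. The effect of calcitriol on Cyp2r1 in wild type minus that in knockout was -0.34 (SE 0.52, interval -1.48 to 0.81, adjusted p = 1).

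The second Cyp2r1 probe was dim, at -7.38 to -2.98, and well above background on 4 arrays, namely wild-type calcitriol of mice 2 and 3, wild-type vehicle of mouse 2 and knockout calcitriol of mouse 2. It was not tested, and its slide 3 arrays (-7.05 to -4.27) overlapped those of the other slides (-7.38 to -2.98), unlike those of the bright probe. The 5 named genes most like the bright probe were Chrna2, Scgb1b3, 5430401F13Rik, Xntrpc and Zfp57, with r of 0.992 to 0.980. Chrna2 encodes a subunit of an acetylcholine receptor. A gene this close to Cyp2r1 in pattern also follows the slides, so these are descriptions only. The part of the slide in the Cyp2r1 values was not tested beyond the fits above.

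Cyp27a1, the mitochondrial sterol 27-hydroxylase, was measured with 10 spots per array and was well above background on all 12. Between spots of 1 array its log2 intensity had an SD of 0.07 to 0.21, which is the technical spread within an array. Its level was -2.37, -2.47 and -2.81 in wild-type calcitriol arrays of mice 1, 2 and 3, against -1.71, -2.12 and -3.01 in wild-type vehicle arrays. In knockout organoids it was -2.76, -3.00 and -3.12 with calcitriol, against -2.11, -2.60 and -3.59 with vehicle. In all 4 groups mouse 1 was highest and mouse 3 lowest, and 7.16% of genes kept 1 order of the numbers in all 4 groups.

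The spread of Cyp27a1 over mice was wider with vehicle (SD 0.67 in wild type, 0.75 in knockout) than with calcitriol (0.23 and 0.18), and this difference in spread was not tested. Calcitriol minus vehicle was -0.66 and -0.35 in wild-type mice 1 and 2 and 0.20 in mouse 3, and in knockout -0.65, -0.40 and 0.47. A split of mice 1 and 2 from mouse 3, the same in both genotypes, was found in 16.3% of all genes and also, with the signs turned, in Cyp2r1. The mean differences of -0.27 in wild type and -0.19 in knockout (SE 0.39 each, adjusted p = 1 for both) were not called. Within slide 3 they were 0.46 and 0.71. The only vehicle array there is that of mouse 3 in each genotype, the lowest mouse of every group. The knockout calcitriol arrays there are those of mice 1 and 2, so mouse and treatment cannot be told apart in that value. The effect on Cyp27a1 in wild type minus that in knockout was -0.08 (SE 0.56, interval -1.30 to 1.14, adjusted p = 1).

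**Figure D3:**
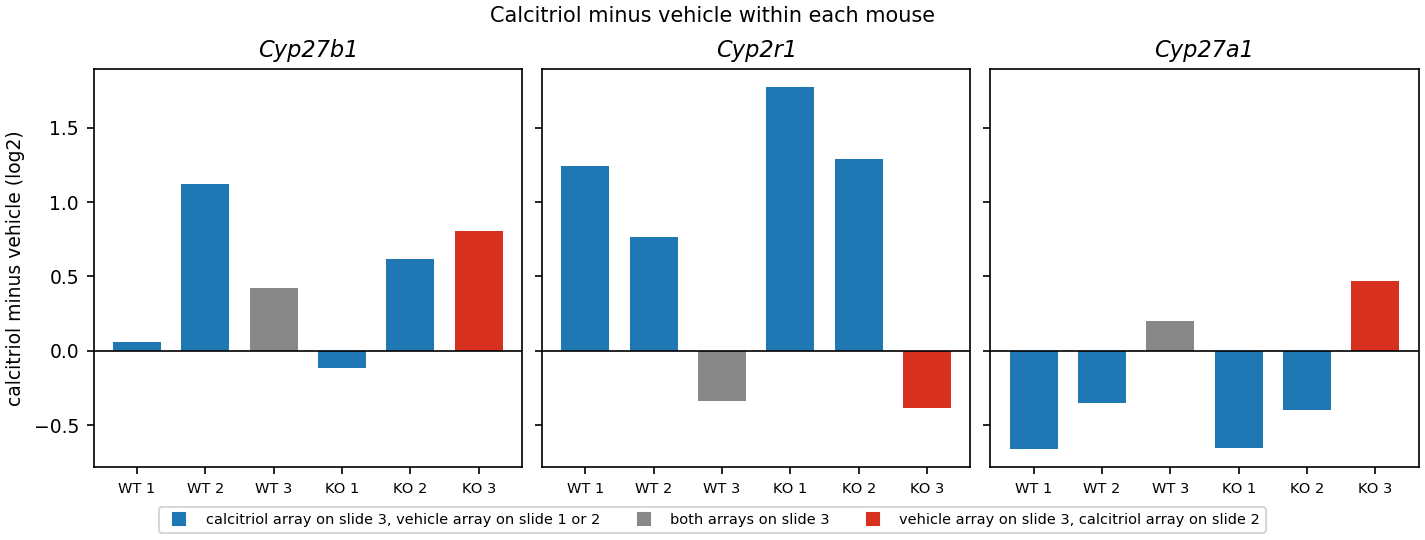
Level with calcitriol minus level with vehicle in each mouse (y axis, log2) for Cyp27b1, Cyp2r1 and Cyp27a1 in WT and KO organoids of mice 1 to 3. Colours say whether the calcitriol array of the mouse lay on slide 3 and its vehicle array elsewhere, both lay on slide 3, or the reverse. Cyp2r1 is above 0 and Cyp27a1 below 0 in the 4 mice whose calcitriol array alone lay on slide 3, and both have the other sign in the mice numbered 3.

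Cyp27a1 was lower in knockout than in wild-type organoids in 6 of 6 same-numbered pairs, as were 4.18% of all genes, while 9.51% differed 1 way in all 6 pairs. Cyp24a1 was lower in all 6 too, but in vehicle both of its values were below the detection limit in mice 1 and 2. The 6 pairs come from 3 mice of each genotype and are not independent. The Cyp27a1 pairs differed by -0.39, -0.52 and -0.31 in calcitriol and by -0.40, -0.48 and -0.58 in vehicle. The means were -0.41 in calcitriol (SE 0.39, adjusted p = 1) and -0.49 in vehicle (SE 0.39, adjusted p = 0.742), and the second was smaller than the SD between mice of either vehicle group. With the replicate number as a block, which removes the shared order of the mice, the SE was 0.25 and neither was called (adjusted p = 0.874 and 0.368). Genes closest in pattern to Cyp27a1 were Yipf2, Fbxw9 and Rab31, with r of 0.91.

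By group mean, Cyp24a1 lay at 6.20 in wild-type calcitriol, -5.79 in wild-type vehicle, -7.15 in knockout calcitriol and -7.51 in knockout vehicle. In the lower 3 groups the probe was well above background on 1, 0 and 0 of 3 arrays, so their means rest mostly on values below detection and are given no order. In Cyp27b1 and Cyp2r1 wild-type calcitriol came first and knockout calcitriol next, with gaps of 0.03 and 0.08, below their SE of 0.39 and 0.37. Their vehicle groups were lower by gaps that no test called. For Cyp27b1 the vehicle groups were well above background on 0 of 3 wild-type and 1 of 3 knockout arrays. For Cyp2r1, slide 3 held 3 wild-type calcitriol arrays, 2 of knockout calcitriol and 1 of each vehicle group. The order for Cyp27a1 was wild-type vehicle, wild-type calcitriol, knockout vehicle and knockout calcitriol, each gap being 0.19 to 0.27. None of the neighbouring pairs of these 3 genes that the design compares was called, and the pairs that differ in both genotype and treatment, such as knockout calcitriol and wild-type vehicle for Cyp2r1, were not tested.

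The genes next to the members in the annotation were measured where the array had a probe that passed. Pfdn4, beside Cyp24a1, differed by 0.36 in wild type with calcitriol (SE 0.20, adjusted p = 0.988). The other 8 neighbours tested, which include Cdk4 and Mettl1 beside Cyp27b1 and Pde3b beside Cyp2r1, differed by -0.22 to 0.21, and none of the 9 was called in any of the 5 comparisons, with or without the block.

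Genes that supply the enzymes were followed as lists. The redox partners that pass electrons to these enzymes (Fdx1, Fdx2, Fdxr, Por, Cyb5a and Cyb5r3) were well above background on all 12 arrays, and 0 of 6 were called in any comparison. In wild type their differences with calcitriol were -0.13 to 0.33, with Por, the reductase of microsomal P450 enzymes, at 0.33 (SE 0.18, adjusted p = 0.988), and their median of -0.05 was near the -0.03 of all genes. In knockout they lay between -0.11 and 0.05.

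Of 7 genes of vitamin D precursor and transport 4 were tested and 0 called without a block, with a median difference of 0.22 in wild type and -0.06 in knockout, where all genes had -0.03 and 0.03. Cubn, which encodes cubilin, a receptor known in the kidney for taking up vitamin D bound to its carrier, lay at 3.71, 2.46 and 2.68 in wild-type calcitriol arrays, against 2.21, 0.68 and 0.77 in wild-type vehicle arrays. The wild-type groups did not overlap, and mouse 1 was highest in both. In knockout Cubn lay at 1.89, 0.60 and 1.05 with calcitriol, against 1.98, 0.48 and 1.12 with vehicle. The difference in wild type, 1.73 (SE 0.51), had an adjusted p of 0.64 without a block, and of 0.000316 in the fit that blocks on mouse, where 0.916% of genes were called. That blocked call was kept without any 1 wild-type mouse, with adjusted p from 0.00302 to 0.0111.

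The effect on Cubn in wild type minus that in knockout was 1.74 (adjusted p = 1 unblocked, 0.00376 blocked by mouse, where 0.235% of genes were called). Under calcitriol, knockout against wild type was -1.77 (adjusted p = 0.629 without a block, 8.89e-05 with the replicate number as a block). With slide as a block, the size in wild type was 1.88 and not called (adjusted p = 1). Its usual partner megalin, the gene Lrp2, and the adaptor gene Dab2 were not well above background on any array. Dhcr7, which removes the skin precursor of vitamin D, differed by -0.005 in wild type (SE 0.15, adjusted p = 1).

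Other enzymes known to act on vitamin D were mostly dim or absent from the filter. Of 12 on the array 6 were tested and 0 called in any comparison, and Cyp3a16, Cyp3a25 and Cyp3a44 were not well above background on any array. Cyp11a1, known to hydroxylate the vitamin D side chain, differed in wild type by 0.92 (SE 0.64, adjusted p = 0.993), Cyp2d22 by -0.91 (SE 0.50, adjusted p = 0.988) and Cyp3a11 by 0.49 (SE 0.71, adjusted p = 1). Of 16 other sterol, steroid and retinoid P450 genes and relatives 8 were tested and 0 called. The bile acid enzymes Cyp7a1, Cyp7b1 and Cyp8b1 were among 5 not well above background on any array. The median difference in wild type was 0.005 for the enzymes acting on vitamin D and 0.20 for the other P450 genes, of which Cyp17a1 (0.75, SE 0.46, adjusted p = 0.988) and Cyp21a1 (0.50, SE 0.26, adjusted p = 0.988) had the largest positive differences. With slide as a block these were -0.08 for Cyp17a1 and 0.14 for Cyp21a1, and Cyp26b1, at 0.25 without the block, was highest of the 3 at 0.78.

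Of 22 known regulators of the hydroxylase genes 16 were tested. Cebpd, a transcription factor of the C/EBP family, rose in wild type, and 15 were not called. Its level was 4.69, 4.34 and 4.44 in wild-type calcitriol arrays, against 2.81, 2.17 and 1.91 in wild-type vehicle arrays, and 2.40, 2.11 and 2.03 in knockout calcitriol, against 2.62, 2.12 and 2.10 in knockout vehicle. The rise in wild type was 2.20 (SE 0.23, adjusted p = 0.00167). Its adjusted p was 0.0492 with slide as a block (difference 2.31) and 0.0609 within slide 3 (2.58). Under calcitriol, knockout was lower than wild type by a log2 difference of -2.31 (SE 0.23, adjusted p = 0.000699). The effect in wild type minus that in knockout, 2.30 (SE 0.32), passed (adjusted p = 0.0408), with mouse as a block too (0.00273). Without a block the call ended when any 1 array but wild-type vehicle of mouse 1 was left out (adjusted p from 0.0702 to 0.154), while the difference stayed at 2.11 to 2.41. It also ended with slide as a block (2.29, adjusted p = 0.907), within slide 3 (2.43, 0.608), scaled to the median (3.10, 0.0596) and without a variance trend (2.30, 0.108).

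Cebpb, its relative known to act on Cyp24a1, differed by -0.26 in wild type and -2.61 in knockout (SE 1.48 each), the second from 1 array, knockout calcitriol of mouse 1, at -4.69 against 2.69 and 3.04 on the others of its group. Rxrg, a gene of the partner family of the receptor, differed by 0.52 in wild type (SE 0.28, adjusted p = 0.988) and 0.59 in knockout (adjusted p = 0.862), and Vdr itself by -0.58 in wild type (SE 0.26, adjusted p = 0.988). Fgf23, a hormone gene of bone, was above the detection limit on each of the 12 arrays and differed by 0.49 in wild type (SE 0.29, adjusted p = 0.988) and 0.62 in knockout (adjusted p = 0.862). As for Cyp2r1, the slide 3 arrays lay above the other 5 in both genes, at 2.01 to 2.62 and 1.34 to 1.95 for Rxrg and at 2.90 to 3.88 and 2.36 to 2.88 for Fgf23. With slide as a block their differences in wild type were -0.02 and -0.10, and in knockout 0.61 and 0.75. The median of the 16 was -0.05 in wild type and -0.003 in knockout. Klotho (Kl), the co-receptor through which FGF23 lowers Cyp27b1 in the kidney, was well above background on 1 of 12 arrays, and the parathyroid hormone receptor gene Pth1r on 3.

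**Figure D4:**
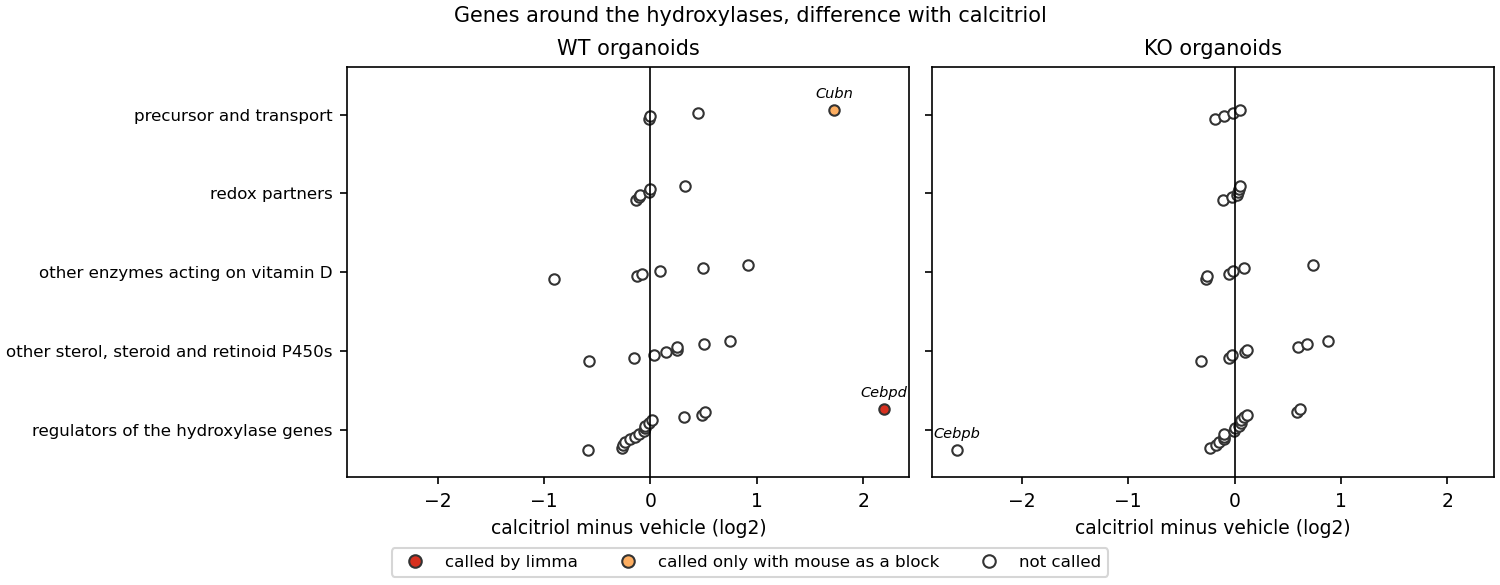
Calcitriol minus vehicle (x axis, log2) in WT and KO organoids for the tested genes of 5 lists around the hydroxylases (rows), 1 point a gene, with vertical spread only to separate points. Filled points passed in limma without a block (red) or only with mouse as a block (orange). Cebpd at 2.20 and Cubn at 1.73 stand to the right in WT, no point is filled in KO, and Cebpb in KO rests on 1 array.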

How the data were processed

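Colonic organoid RNA was labelled with 1 dye (100 ng, per the labels) and hybridised to 12 Agilent arrays. Per the file headers, the intensities the authors deposited are linear, background-subtracted values for each spot from Agilent's Feature Extraction, version 11.5.1.1. Nothing was normalized between arrays, and the probe annotation is on mm9, per the file headers.

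Control and outlier spots were dropped, spots of a probe were averaged on the log2 scale, and the 75th percentile over probes was subtracted (over spots, it was an intensity of 580.6 to 790.5). Of 55681 probes, 28026 were named through accessions in a RefSeq table (GRCm38.p6), and 163 with missing values were dropped. A probe was kept if some group had it well above background in all 3 mice, and the brightest probe by mean stood for a gene, which left 24245 genes. The test was limma (3.58.1, R 4.3.3), in 1 fit of 4 group means with a variance trend, two-sided, and Benjamini-Hochberg adjustment over all genes. The number of arrays limits the precision. A fold against dim arrays starts from the higher group's mean. It is set against, per array, the larger of the dim probe's own level and the lowest level well above background. As that lowest level is no cutoff, the fold is no strict bound.

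The mouse number pairs the treatments, per the labels. Deviations from group means correlated at 0.57, 0.32 and 0.32 in wild-type and 0.25, 0.59 and 0.10 in knockout mice, and between genotypes of 1 number at 0.13 to 0.64, so mouse or number was also fitted as a block. The test was also run on simulated data with independent noise and no mouse or slide structure, so that run cannot speak to either. Members, lists and rules for named genes (up to 4 genes of a list by smallest p, 5 nearest patterns by Pearson r, 2 neighbours on each side) were chosen with earlier results of these data known, and genes named only for their detection (Adgre1, Lyz2, Kl, Pth1r) after their values were seen. Alternatives were other background and scaling methods, no filter, probe means, fewer groups, blocks, slide 3 alone, no variance trend and each array left out. The normexp alternative used median spot intensities, as mean intensities were not used here. One gene of the lists is not reported here.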

Additional observations from a re-analysis of the deposited data

Results flagged for a closer look

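The effect of calcitriol on Cyp24a1 differed between the genotypes (limma interaction, adjusted p = 0.00116), with the level higher with calcitriol in 3 of 3 wild-type mice by 10.58 to 13.05 on the log2 scale, while all 6 knockout arrays were not well above background. The size of the difference of effects in same-numbered mice was 11.65, 12.95 and 10.33. Both fits that account for slide ended the call, as given above.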

How the results depend on the processing

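Over the 4 genes and 5 comparisons 416 values were recomputed, of which 365 kept their direction and side of the threshold. The Cyp24a1 difference of effects lost its call with slide as a block (9.763) and within slide 3 (9.373). These fits had fewer arrays or degrees of freedom, and what ended the call was not tested. The Cyp24a1 rise in wild type (9.148 to 12.93) and its lower level in knockout under calcitriol (-14.1 to -9.273) kept their calls under all 19 alternatives each. The replicate block changed no call of these genes (Cyp24a1 in wild type 11.99, limma adjusted p = 9.31e-05). The other 49 values reversed, none of them in a result called under any alternative, and the cause was not tested. With normexp and quantile normalization these were Cyp27b1 in knockout with calcitriol (-0.004998), Cyp27b1 in knockout against wild type under calcitriol (0.01235) and the Cyp27a1 difference of effects (0.1399, and 0.2706 with quantile normalization alone). Scaling to the median turned the Cyp2r1 difference of effects (0.4625), Cyp2r1 knockout against wild type in vehicle (0.3601), Cyp27a1 in wild type with calcitriol (0.2387), the Cyp27a1 difference of effects (0.7197) and Cyp27a1 knockout against wild type in vehicle (0.2908). Slide as a block and slide 3 alone turned the Cyp27b1 difference of effects (-0.1122 and -0.1556), Cyp27b1 knockout against wild type in vehicle (-0.1514 and -0.2381), Cyp2r1 in wild type (-0.09466 and -0.1581), Cyp2r1 knockout against wild type under calcitriol (0.2427 and 0.211), and Cyp27a1 with calcitriol in wild type (0.0134 and 0.4597) and in knockout (0.4892 and 0.7124).

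Leaving out 1 array at a time turned 9 results, with ranges of -0.2055 to 0.7447 for Cyp24a1 in knockout with calcitriol, -0.08422 to 0.2471 for the Cyp27b1 difference of effects, -0.1098 to 0.2215 in vehicle and -0.1183 to 0.09374 in calcitriol for Cyp27b1 knockout against wild type, -0.6795 to 0.02242 for the Cyp2r1 difference of effects, -0.2482 to 0.211 for Cyp2r1 knockout against wild type under calcitriol, -0.6366 to 0.01455 for Cyp27a1 in wild type, -0.6044 to 0.1366 for Cyp27a1 in knockout and -0.4442 to 0.3333 for the Cyp27a1 difference of effects. The replicate block with 1 mouse or number left out, chosen after seeing the data, turned Cyp24a1 in knockout without knockout mouse 1 (-0.1744), the Cyp27b1 difference of effects without knockout mouse 1 (-0.1727) or wild-type mouse 2 (-0.1932), and Cyp27b1 knockout against wild type without number 2 (0.06219 in calcitriol and -0.04112 in vehicle). It also turned the Cyp2r1 difference of effects without knockout mouse 1 (0.1031) or wild-type mouse 3 (0.1109), Cyp2r1 knockout against wild type under calcitriol without number 3 (0.1225), Cyp27a1 in knockout without knockout mouse 1 (0.03692) and the Cyp27a1 difference of effects without wild-type mouse 1 (0.1158) or knockout mouse 3 (0.2524).

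The number of genes called in wild type was 37, and 222 with mouse as a block (45 to 84 with a wild-type mouse left out), 8 with slide as a block, 3 within slide 3, 60 with normexp, 76 scaled to the median, 20 with only the groups compared, and 14 to 31 without 1 array. For the difference of effects it was 7, and 57 with the block (21 to 62 with a mouse left out, 25 without knockout mouse 1), 1 with slide as a block, 2 within slide 3, 18 with normexp, 12 with quantile normalization and 24 scaled to the median. For knockout against wild type it was 50 under calcitriol (243 with the block, 51, 45 and 205 with the block and without number 1, 2 and 3, 15 within slide 3, 25 to 34 without 1 array) and 1 in vehicle (0 to 4 over alternatives), and in knockout 0 throughout. Signals of Cyp27b1, and of Cyp24a1 outside wild-type calcitriol, are at the detection limit, which limits what their differences can show.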
